A study of Mus musculus with 16 samples.

Results

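Clusters of RNA recovered with PGC-1α that lie in intronless protein-coding genes are described here. A member is a cluster whose midpoint falls, on the same strand, in a protein-coding gene of the GENCODE M21 annotation of mm10 all of whose transcripts have 1 exon, and in no other protein-coding gene on that strand. Of 21951 protein-coding genes, 1331 are intronless in this sense, and 13 of those are on the mitochondrial chromosome. The rule found 1115 clusters of 1331383, or 0.0837%, in 115 of the 1318 nuclear genes. The 13 mitochondrial genes held 0 clusters. Membership depended on position alone and used no measured value.

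PGC-1α works with nuclear receptors and other factors to switch on the genes of gluconeogenesis and mitochondrial metabolism during fasting, and near its C-terminus it carries an RNA-recognition motif and arginine/serine-rich stretches. Most protein-coding RNAs of the mouse are made as precursors whose introns are removed by splicing, and proteins that act at the gene during transcription meet introns and exons alike. Intronless genes make a precursor that is already continuous, so every position in them belongs to a UTR or to the coding sequence. In liver such genes include early-response transcription factors, histones, claudins and small GTPases, many of them with short-lived RNAs.

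The RNA came from primary hepatocytes of C57BL/6J mice, in which ultraviolet light (254 nm, 400 mJ/cm2) had linked RNA to protein. PGC-1α was immunoprecipitated (IP) and its RNA sequenced by single-end eCLIP. Control cells were untreated, and glucagon cells received 200 nM of that hormone of fasting for 3 h; the protocol places this after a night in starvation medium. Each treatment was read from a lower and an upper band with 2 replicates, which gives 8 IP libraries in 4 groups, beside 8 inputs that enter only through the deposited fold. Whether the replicates came from different cultures or animals is not in the labels. The p-values therefore measure the spread among these libraries alone, and that spread may be technical. Nor do the labels say whether both bands of a replicate came from the same preparation. If they did, the 8 libraries are not independent, and p-values that count 8 units may be too small.

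Each cluster carries a log2 fold over input and a −log10 p of that fold, both as deposited by the authors. A cluster was called enriched when both reached 3. Read depth is unknown, because the files hold no read counts. Library size in clusters ran from 26279 in glucagon lower band replicate 1 to 260814 in control upper band replicate 2, and the second smallest library had 97629. All 10 hepatocyte marker genes held clusters, 3058 in all, against 5 clusters in 1 of 9 Kupffer markers, 1 in 1 of 7 endothelial markers, 6 in 1 of 7 stellate markers and 23 in 2 of 6 cholangiocyte markers. In such bulk libraries fewer cells of a type and less RNA per cell cannot be told apart.

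The recurrent sites of intronless genes are shown first, since they are the places where most libraries had a cluster. Clusters that overlapped were chained into 599 sites, so that 2 clusters of 1 site need not share a base. Of these sites, 24 in 15 genes had a cluster in 6 or more libraries and 9 in 7 or more. At each of those 9 sites 30 nt centred on the cluster with the highest −log10 p are printed 5′ to 3′ on the strand of the gene, from the GENCODE M21 transcript (GRCm38, mm10). The Jun 5′ UTR cluster is 19 nt long and shorter than its stretch. Capitals mark, within the printed stretch, the bases that clusters of most libraries covered: 8 libraries for the downstream Rraga site, Jund and Cldn3, 7 for Hnrnpa0, 6 for the upstream Rraga site, 5 for the Jun 3′ UTR and Cldn4, and 4 for Mgat2 and the Jun 5′ UTR. Outside the printed stretch, bases 69184361 to 69184373 of the Mgat2 site and 86576970 to 86576974 of the upstream Rraga site were covered in 7 libraries.
Rraga 3′ UTR, chr4:86577136-86577165 (+): TACCTGGTTATAATAGAGTattaaagcagt
Hnrnpa0 3′ UTR, chr13:58126995-58127024 (−): GCTACAGCGTTTTCTATGAAACCTACTTGG
Mgat2 5′ UTR, chr12:69184245-69184274 (+): cgtTCGGTGTCGccgttccgccgtgcgagc
Jun 5′ UTR, chr4:95051810-95051839 (−): gcaaatctcttctGCGCCTTAAGGctgcca
Jund coding sequence, chr8:70699081-70699110 (+): ggaggcgctgagcggcctGGCTGCGGGTGC
Jun 3′ UTR, chr4:95049800-95049829 (−): TAAGTGCCAGGCTAGACTGCAGAtgaactc
Rraga 3′ UTR, upstream site, chr4:86576936-86576965 (+): ttcataatgtcatgtgcTTAAAAGTGAGCT
Cldn3 5′ UTR, chr5:134986384-134986413 (+): GCGATCCCTGGTCTCCCAGTCCCCTGAGCT
Cldn4 3′ UTR, chr5:134946020-134946049 (−): GTGGcccctcacattctccaggacctgccc

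The order of these stretches is that of the mean fold of the whole site, from Rraga at the top to Cldn4 at the bottom. A site can reach well beyond its printed stretch, as that of Jund does, so this is not an order of the stretches themselves. The first of them, in Rraga, is AT-rich, with 30% GC. The stretches of Mgat2 and Jund held 73.3% and 80% GC, so the recurrent sites share no single base composition.

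Rraga encodes RagA, a small GTPase that carries the amino-acid signal to mTORC1. Its downstream 3′ UTR site (chr4:86577103-86577222) had 1 cluster in each of the 8 libraries. The log2 folds were 1.29 and 0.22 in the control lower band, 0.59 and 2.39 in the lower band with glucagon, 1.43 and 0.88 in the control upper band, and 2.06 and 0.72 in the glucagon upper band. All 8 were above 0, with a mean of 1.2 ± 0.74 (SD, n = 8), and the control and glucagon libraries overlapped. The authors' −log10 p reached 3 in 3 of these libraries, at 4.95, 3.98 and 3.23. The site upstream of it in the same 3′ UTR averaged 0.18 ± 0.54 (SD, n = 7), with 4 of 7 libraries above 0, so neighbouring sites of 1 UTR had different levels.

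Hnrnpa0 encodes an RNA-binding protein of the hnRNP A/B family. Its 3′ UTR site (chr13:58126958-58127062) had folds of 2.07 and 0.69 in the control lower band, 1.87 in glucagon lower band replicate 2, 0.93 and 0.13 in the control upper band, and 0.86 and −0.21 in the glucagon upper band. The mean was 0.91 ± 0.84 (SD, n = 7) and 6 of 7 libraries were above 0. Replicates of one group differed by more than 1 log2 unit in the lower band of control cells and in the upper band of glucagon cells. Mgat2, the N-acetylglucosaminyltransferase II of N-glycan synthesis in the Golgi, had a 5′ UTR site at 0.86 ± 0.78 (SD, n = 7), above 0 in 7 of 7 libraries. Where a library had several clusters at a site, its fold there is their mean. In control upper band replicate 1 the Mgat2 clusters had −0.09 and 0.13, so its mean was near 0.

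The claudins Cldn3 and Cldn4, membrane proteins of the tight junction, were at the other end. The Cldn3 5′ UTR site gave −0.47 and −0.60 in the control lower band, 0.23 and −0.52 in the lower band with glucagon, −0.58 and −0.70 in the control upper band, and 0.16 and 0.12 in the glucagon upper band. It averaged −0.29 ± 0.39 (SD, n = 8), and 3 of the 4 glucagon libraries were above all 4 control libraries while the fourth lay among them. The Cldn4 3′ UTR site was below 0 in 7 of 7 libraries, at −0.63 ± 0.49 (SD, n = 7). Of the 24 sites seen in 6 or more libraries, 16 had a mean above 0 and the others did not.

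**Figure D1:**
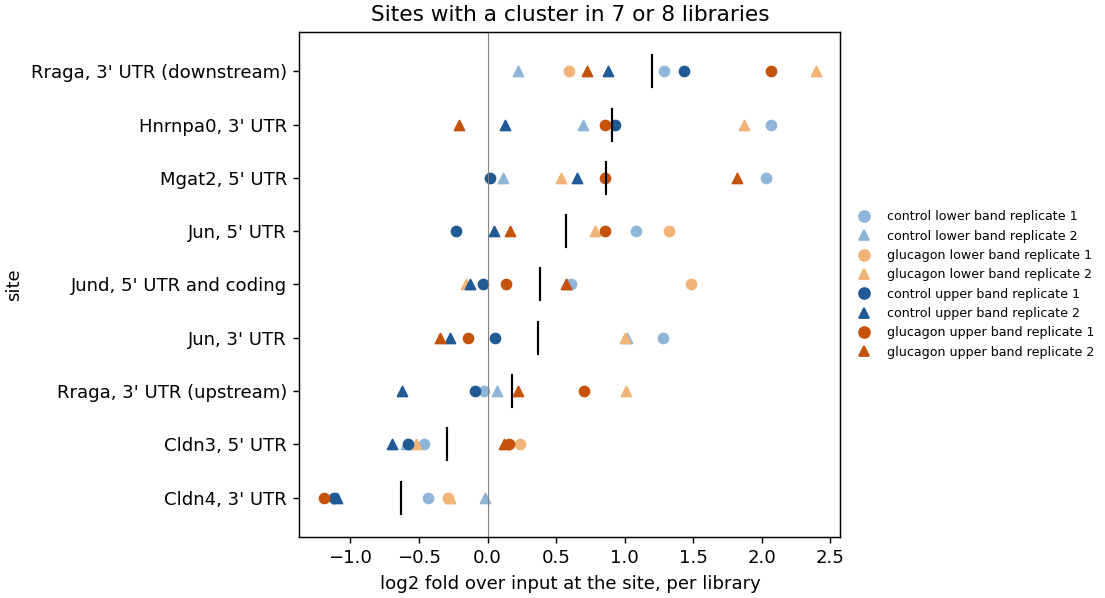
Log2 fold over input (x axis) at the 9 sites of intronless genes with a cluster in 7 or 8 libraries (y axis); each point is 1 library, coloured by treatment and band and shaped by replicate, and the black bar is the mean over libraries. The downstream Rraga site has all 8 points above 0, and the Cldn4 site has 0 of 7 above 0.

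Enrichment was the first comparison. None of the 1115 member clusters was enriched, 0 in each of the 8 libraries, which allows a share of up to 0.269% (counting error only). Of all clusters in the series 2.7% passed the same thresholds. In exons of spliced genes 0.542% did, and 0.128% at exon positions that are intronic in no transcript. No peak of the authors' 4 reproducible lists, which hold 8478 peaks, lay in an intronless gene. Of all protein-coding genes with a cluster, 10.7% had such a peak, and 2.27% of spliced genes with an exonic cluster had one in an exon. The 2 criteria were met separately: 7 member clusters (0.628%) reached a −log10 p of 3, all with a fold above 0. Of the clusters in exons of spliced genes, 1.83% had both that −log10 p and a fold above 0. Counted at any fold, 6.1% of all clusters reached that −log10 p. A log2 fold of 3 was reached by 15 member clusters (1.35%), against 6.05% of all clusters and 1.25% in exons of spliced genes.

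The 7 clusters with a −log10 p of 3 or more lay in 4 genes. The Rraga site gave 3 of them and the Hnrnpa0 site 2. Another was in the coding sequence of Jund, an AP-1 transcription factor subunit, in glucagon upper band replicate 2, with the highest −log10 p of all members, 5.79, at a log2 fold of 1.47. The last was in the 3′ UTR of Sox4, an HMG-box transcription factor, in control upper band replicate 2, with a fold of 1.60 and a −log10 p of 4.0. All 7 had a log2 fold below 3, from 1.43 to 2.39.

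The 15 clusters with a log2 fold of 3 or more lay in 13 genes and had a −log10 p of at most 2.87. The highest fold, 4.47, was in the 5′ UTR of Tlnrd1, which encodes a talin rod domain protein, in glucagon lower band replicate 1. Ier5, an immediate early gene, reached 3.86 in its coding sequence, and Purb, which encodes the single-stranded nucleic acid-binding protein Pur-beta, reached 3.79 in its 3′ UTR. Tmem203 followed at 3.53, Inafm1 at 3.49, then Fem1a, Ccdc71l, Plpp6 and Tspyl1 at 3.44 each and Igip at 3.16. The clusters at 3.44 were all in glucagon upper band replicate 1 with the same −log10 p of 1.47, so they repeat 1 value. Of the 15 clusters, 4 were in glucagon lower band replicate 1 and 5 in glucagon upper band replicate 1. These were the smallest and second smallest library, with 40 and 97 member clusters, and each other library held at most 3. The 3 clusters just inside the fold threshold, in Leng9, Inafm2 and Inafm1, each had 3.05, and the 3 just outside it were in Dolk (2.93), B3galt4 (2.90) and Mgat2 (2.82).

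**Figure D2:**
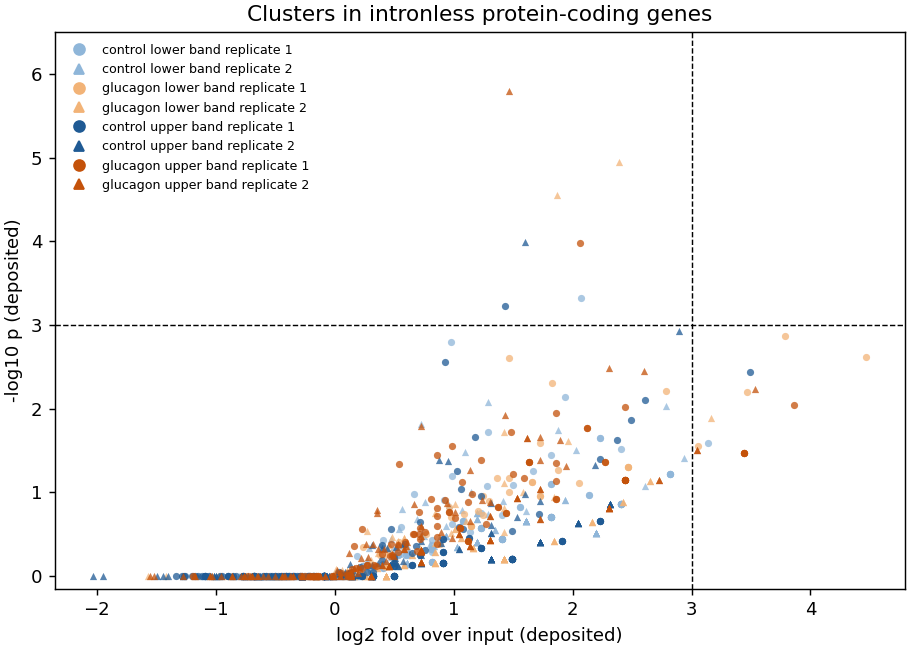
The −log10 p (y axis) against the log2 fold over input (x axis), both as deposited, for the 1115 clusters of intronless genes; each point is 1 cluster, coloured by treatment and band and shaped by replicate, and dashed lines mark the 2 thresholds of 3. The upper right corner is empty, with 7 clusters above the horizontal line and 15 to the right of the vertical line.

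Most member clusters were short and weakly supported. Their length ran from 2 to 222 nt with a median of 46, the median −log10 p was 0.162, and 416 had a −log10 p of 0. Log2 folds spanned −2.03 to 4.47, and 787 (70.6%) were above 0. The same fold often recurred within a library: the 4 commonest values of each library held 356 clusters in all (31.9%). Medians can therefore sit on such a repeated value. In both control lower band libraries and in glucagon lower band replicate 2 the median of all member clusters was the commonest fold.

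The clusters were spread over all parts of these RNAs. The 3′ UTR held 539 (48.3%) in 83 genes, the coding sequence 362 (32.5%) in 84 genes and the 5′ UTR 214 (19.2%) in 48 genes. Per kb of annotated sequence in the genes with a cluster, summed over the 8 libraries, this was 3.33 clusters for the 3′ UTR, 3.25 for the coding sequence and 5.37 for the 5′ UTR. Among exonic clusters of spliced genes the coding sequence held 62.3%, the 3′ UTR 27.8% and the 5′ UTR 9.94%.

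The median fold of coding-sequence clusters was higher in intronless than in spliced genes. In the intronless genes it was 0.62 and 0.61 in the control lower band, 1.14 and 0.11 in the lower band with glucagon, 0.33 and 0.14 in the control upper band, and 0.93 and 0.50 in the glucagon upper band. In spliced genes the same libraries gave 0.08 and 0.03, 0.58 and −0.16, −0.33 and −0.27, and 0.27 and −0.15. The intronless value was the higher of the pair in 8 of 8 libraries, by 0.54 ± 0.14 log2 units (SD, n = 8; two-sided exact sign-flip p = 0.00781, the smallest that the sign flips allow; adjusted p = 0.0143 over 11 comparisons by Benjamini-Hochberg). The spread between libraries was wider than the difference, so that the ranges of the intronless and the spliced medians overlap while every pair points one way. With 1 value per gene in place of 1 per cluster the difference was 0.30 (exact sign-flip p = 0.0156, adjusted p = 0.0312).

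This difference moved with how densely a gene was covered. The median coding-sequence cluster of an intronless gene lay in a gene with 7.49 clusters per kb of coding sequence, against 30.5 for spliced genes. When spliced genes were weighted to the same cluster density, the coding-sequence difference was −0.07 ± 0.12 (SD, n = 8), positive in 2 of 8 libraries, with means of 0.55 and 0.62 (exact sign-flip p = 0.109). Weighting to the same GC content instead left 0.41 ± 0.09 (SD, n = 8), positive in 8 of 8 libraries. GC content itself differed, at 64.2% ± 1.90 in intronless and 51.8% ± 0.877 in spliced coding-sequence clusters (SD, n = 8; exact sign-flip p = 0.00781, adjusted p = 0.0143). Both weightings were chosen after the values were seen.

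The 3′ UTR clusters differed in the same direction by less. Intronless medians averaged 0.63 ± 0.53 and spliced medians 0.36 ± 0.30, a difference of 0.27 ± 0.25 that was positive in 8 of 8 libraries (SD, n = 8; exact sign-flip p = 0.00781, adjusted p = 0.0143). The gap was 0.78 in glucagon lower band replicate 1 and 0.49 in control lower band replicate 1, and between 0.02 and 0.28 in the other 6 libraries. Cluster density in this region was close, at 7.59 and 9.15 per kb, and weighting to it gave 0.17 ± 0.18 (SD, n = 8; exact sign-flip p = 0.0391, adjusted p = 0.0586).

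In the 5′ UTR the difference did not pass the test. Intronless medians averaged 0.76 ± 0.40 and spliced medians 0.97 ± 0.27, a difference of −0.22 ± 0.31 that was positive in 2 of 8 libraries, both of the glucagon lower band (SD, n = 8; exact sign-flip p = 0.0938, adjusted p = 0.129). Its sign depended on which spliced positions were used. Against spliced 5′ UTR positions that are intronic in no transcript, the difference was 0.18 (exact sign-flip p = 0.0312, adjusted p = 0.0430). Weighted to the same cluster density it was −0.29 ± 0.27, positive in 2 of 8 libraries (SD, n = 8, exact sign-flip p = 0.0312, adjusted p = 0.0586). The direction in this region therefore cannot be given.

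The share of enriched clusters was lower in intronless genes in every region, but the regions differ in what a count of 0 can show. In spliced genes 4% of 5′ UTR clusters were enriched, at which share 8.48 of the 214 intronless ones would have been; at the 0.608% of positions never intronic it would have been 1.22. In the coding sequence the spliced share was 0.153% (0.089% at positions never intronic) and in the 3′ UTR 0.178% (0.107%). These shares correspond to 0.564 and 0.936 clusters, so that 0 was the likely count there and the absence was not detectable at this number of clusters. The 0 counts allow shares of up to 1.40%, 0.829% and 0.557% in 5′ UTR, coding sequence and 3′ UTR. All 3 differences, −4.01, −0.179 and −0.210 percentage points, had an exact sign-flip p of 0.00781 (adjusted p = 0.0143, negative in 8 of 8 libraries), which follows from any spliced share above 0 set against a count of 0.

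**Figure D3:**
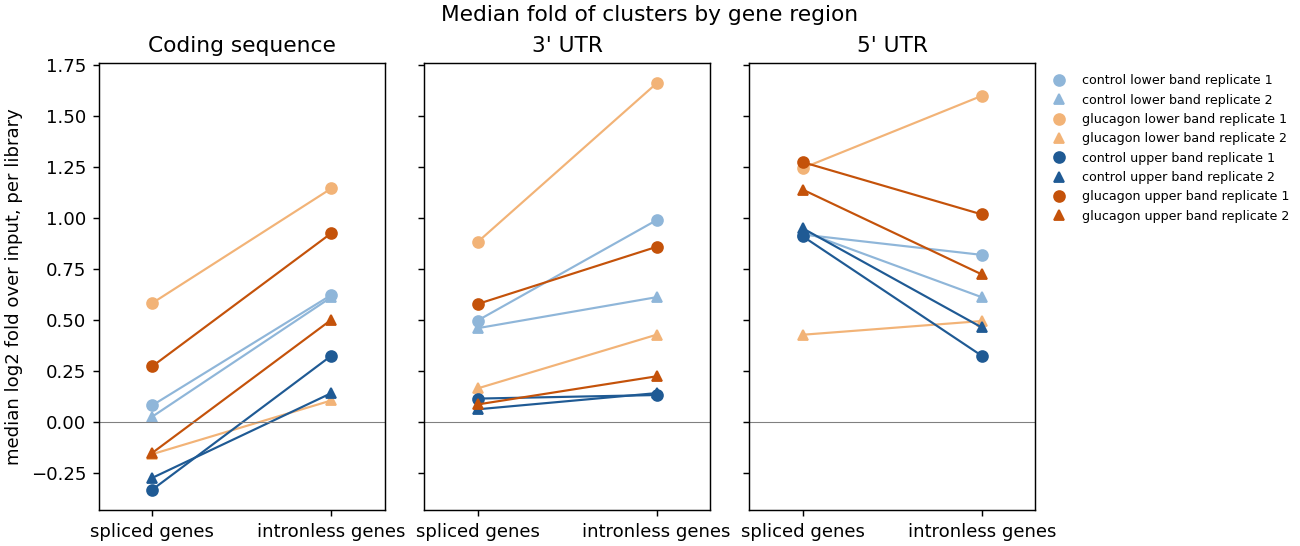
Median log2 fold over input (y axis) of clusters in spliced and intronless genes (x axis), in 1 panel each for coding sequence, 3′ UTR and 5′ UTR; each line joins the 2 medians of 1 library. The lines rise in 8 of 8 libraries in the first 2 panels and in 2 of 8 in the third.

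Within intronless genes the fold was also compared along the RNA. The coding sequence and the 3′ UTR differed by −0.08 ± 0.28 (SD, n = 8), with 3 libraries positive and 3 negative (exact sign-flip p = 0.438, adjusted p = 0.535). The coding sequence was below the 5′ UTR by −0.21 ± 0.17, negative in 6 of 8 libraries and at 0.00 in the other 2 (SD, n = 8; exact sign-flip p = 0.0312, adjusted p = 0.0491). That call was lost when any of 7 libraries was left out (exact sign-flip, adjusted p from 0.0859 to 0.0982), and with 1 value per gene the difference was 0.02. Scaled to the length of each part, bin medians fell between 0.58 and 0.82 in the 5′ UTR, between 0.38 and 0.84 in the coding sequence and between 0.31 and 0.54 in the 3′ UTR. Clusters within 50 nt of the start codon numbered 91 in 42 genes, with a median of 0.43, and those within 50 nt of the stop codon 31 in 22 genes, with a median of 0.73.

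**Figure D4:**
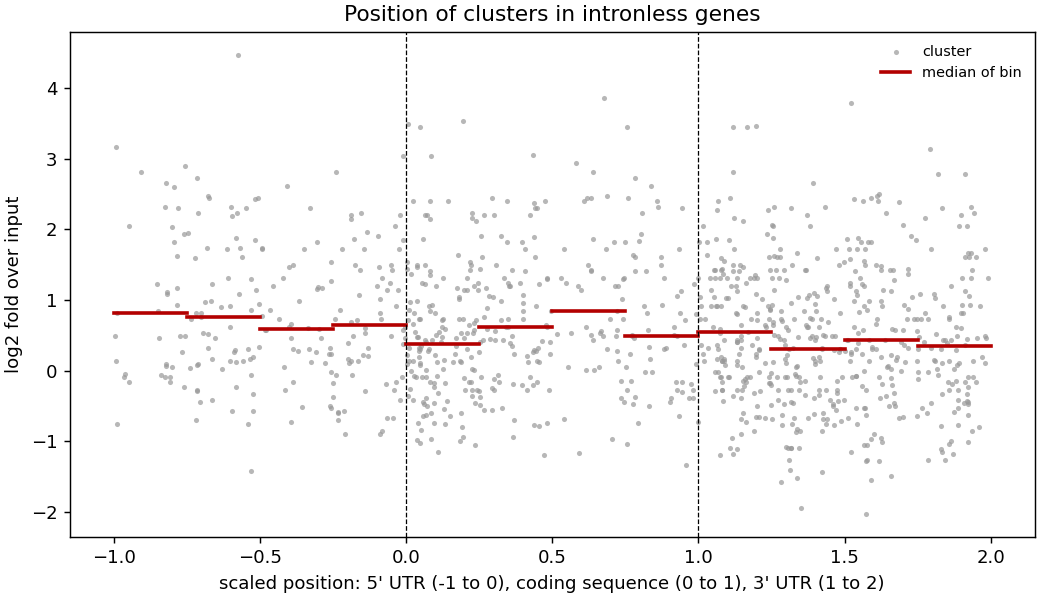
Log2 fold over input (y axis) of each cluster in an intronless gene against its position scaled to the length of the 5′ UTR (−1 to 0), coding sequence (0 to 1) or 3′ UTR (1 to 2) on the x axis; red bars are medians of bins, 4 to each part. Bin medians stay between 0.31 and 0.84 along the whole RNA.

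A few genes held a large share of the clusters. The 10 genes with most held 372 (33.4%), 17 genes had a cluster in all 8 libraries, and 28 genes were seen in 1 library only. Sox4 (chr13:28948919-28953713) led with 60 clusters, 38 of them in its 3′ UTR, with a median fold of 0.09. Jund (chr8:70698949-70700616) had 50 and Jun (chr4:95049034-95052222) 42, and both encode subunits of AP-1.

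The AP-1 pair were covered in different places. Jund had 32 clusters in the coding sequence, 6 in the 5′ UTR and 12 in the 3′ UTR. Jun had 24 in the 5′ UTR and 18 in the 3′ UTR, and 0 in its coding sequence of 1002 nt in all 8 libraries. Their median folds were 0.33 and 0.31.

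The other leading genes had other roles. Purb held 36 clusters, with a median fold of −0.02, and 32 of them lay in a 3′ UTR of 7316 nt. Mgat2 held 34 (median 0.88) and Cldn3 32 (median −0.51). Pigm, the first mannosyltransferase of GPI anchor synthesis, and Rhob, an endosomal small GTPase, held 31 each, with medians of 0.14 and 0.40. Klhl9, an adaptor of a cullin-3 ubiquitin ligase, held 28 in 6 libraries (median 0.03), and Pcbp1, a poly(C)-binding protein, 28 (median 0.13). Mgat2 was the highest and Cldn3 the lowest of these 10.

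By function, no list of intronless genes held an enriched cluster. The share was 2.7% of all clusters, but 0.542% in exons of spliced genes and 0.128% at their positions never intronic. The largest list held 129 clusters, so a count of 0 in a list shows no depletion. List medians are set against 0.49 for all 1115 members and 0.10 for exonic clusters of spliced genes. Of the transcription factor lists, the AP-1 and immediate early genes had clusters in 4 of 5 members, 129 clusters with a median of 0.36, including Ier5 with 23 (median 0.59) and Ier2 with 14 (median 0.77). Cebpb, a liver bZIP factor and the only intronless C/EBP gene here, had 21 clusters with a median of 0.02. Of 31 SOX, FOX, KLF and similar factors Sox4 alone had a cluster, and 2 of 3 zinc finger genes, Zxdb and Zfp830, had 6 between them.

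Histone genes came next in number. Of 65, 14 had clusters, 98 in all with a median of 0.50, but folds of histones with near-identical copies are uncertain because reads can be shared between copies. Hist1h1c, the linker histone H1.2, had 27 (median −0.03) and H1f0, the linker histone of non-dividing cells, 20 (median 0.91). The core histone genes Hist2h4 and Hist1h4h, which both encode H4, had 10 (median 0.72) and 7 (median −0.61).

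Of all nuclear intronless genes 8.73% had a cluster. The lists were picked by gene symbol and do not hold whole classes. In the list of 4 RNA-binding protein genes only Hnrnpa0 had clusters, 25 with a median of 0.69. Rhob was the only one with clusters of the 5 genes in the small GTPase and signalling list. Outside these lists, the poly(C)-binding protein gene Pcbp1 had 28 clusters and the small GTPase gene Rraga 20. In the list of ubiquitin, kelch and F-box genes 3 of 14 had clusters, Klhl9, Fbxl14 with 18 (median 0.10) and Kctd11 with 2. Hspa1b, an inducible HSP70 chaperone, had 2, at 1.49 and 1.73, which are uncertain because Hspa1a is a near-identical copy. Among 206 receptors only 4 had clusters, among them Lpar6, a lysophosphatidic acid receptor, with 9 (median 0.23), and the Wnt receptors Fzd7 and Fzd8, with 4 and 1. None was seen in 107 olfactory and 65 vomeronasal receptors, 18 protocadherins, 52 keratin-associated genes or 17 interferon genes.

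Treatment was compared within bands. Control libraries held 655 member clusters of 811746 and glucagon libraries 460 of 519637. Member clusters made up 0.0973% and 0.0836% of the control lower band libraries, 0.152% and 0.0840% of the lower band with glucagon, 0.0821% and 0.0690% of the control upper band, and 0.0994% and 0.0794% of the glucagon upper band. The highest share belonged to the smallest library, glucagon lower band replicate 1, and the groups overlapped in both bands. Over both bands the share was 0.104% ± 0.0334 with glucagon and 0.0830% ± 0.0116 without (SD, n = 4 each; two-sided exact permutation p = 0.333, adjusted p = 0.667 over 8 comparisons).

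The median fold of all member clusters was 0.82 and 0.61 in the control lower band, 1.33 and 0.43 in the lower band with glucagon, 0.23 and 0.14 in the control upper band, and 0.93 and 0.40 in the glucagon upper band. Both glucagon libraries were above both controls in the upper band, and in the lower band the groups overlapped. The means were 0.77 ± 0.44 with glucagon and 0.45 ± 0.32 without (SD, n = 4 each; exact permutation p = 0.333, adjusted p = 0.667), a difference of 0.32. Without glucagon lower band replicate 1 the difference was 0.09 and the difference in share 0.00373 percentage points, and without glucagon lower band replicate 2 they were 0.55 and 0.0378. Relative to the coding sequence of spliced genes in the same library, coding-sequence clusters of intronless genes differed between treatments by −0.02 (exact permutation p = 0.722, adjusted p = 0.963). With 36 assignments these permutations cannot go below 0.056.

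Bands were compared in the same way. The median fold was 0.43 ± 0.35 in the upper and 0.80 ± 0.39 in the lower band (SD, n = 4 each; exact permutation p = 0.222, adjusted p = 0.667), and the share of clusters 0.0825% ± 0.0126 and 0.104% ± 0.0326 (exact permutation p = 0.278, adjusted p = 0.667). Without glucagon lower band replicate 1 the difference in fold went from −0.37 to −0.15 and that in share from −0.0218 to −0.00475 percentage points. Relative to spliced coding sequence the bands differed by 0.11 (exact permutation p = 0.444, adjusted p = 0.711). The coding sequence held 43.4%, 36.9%, 37.5% and 32.3% of member clusters in the 4 lower band libraries, and 25.9%, 25.6%, 44.3% and 27.3% in the upper band. Except for glucagon upper band replicate 1, the upper band libraries were below all 4 lower band ones, a difference that was not tested.

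Gene by gene, Rhob alone of the 17 genes with clusters in all 8 libraries had both glucagon libraries above both control libraries in each band, and 0 genes had the reverse. Its mean fold per library was 0.80 and 0.12 in the control lower band, 1.37 and 1.10 in the lower band with glucagon, −0.19 and −0.08 in the control upper band, and 1.16 and 0.19 in the glucagon upper band. The share of all 3996 protein-coding genes with clusters in 8 libraries that did the same was 2.15%, and 0.951% had the reverse, so that 1 gene of 17 is given as a description only. The count depends on the libraries: without glucagon lower band replicate 2 it was 8 of 17, where 50.6% of all genes met the criterion. Without control lower band replicate 1 it was 4 of 17 (6.26% of all genes), without glucagon lower band replicate 1 it was 2 of 26 (2.6%) and without glucagon upper band replicate 2 it was 2 of 17 (3.48%). All 17 differences were positive, with a median of 0.41, but so were 3376 of the 3996, with a median of 0.31. Relative to the spliced coding sequence of each library, Ier5 and Rhob met the criterion, 2 of 17 against 1.83% of all genes, and 0 of 17 had the reverse, against 5.06%.

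Over the 8 libraries the gene with the highest difference was Ier5. It had 0.76 and 0.27 in the control lower band, 2.97 and 0.58 in the lower band with glucagon, 0.34 and −0.20 in the control upper band, and 1.44 and 0.72 in the glucagon upper band, a difference of 1.14. Its groups overlapped in the lower band and not in the upper band. Without glucagon lower band replicate 1 its difference was 0.54 and Rhob led with 0.73. Tlnrd1 had 2.32 and 1.93 in the control lower band, 4.47 and 1.27 in the lower band with glucagon, 0.24 and −0.10 in the control upper band, and 1.94 and 0.31 in the glucagon upper band. Its difference between treatments was 0.90, or 0.10 without glucagon lower band replicate 1. The upper minus the lower band came to −1.90, although glucagon libraries of the bands overlapped, and this difference was below 0 in all 17 genes (median −0.52) and in 3232 of the 3996 (median −0.27). Purb, Tlnrd1 and Ier5 had their highest value in glucagon lower band replicate 1, where each had only 1 or 2 clusters.

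**Figure D5:**
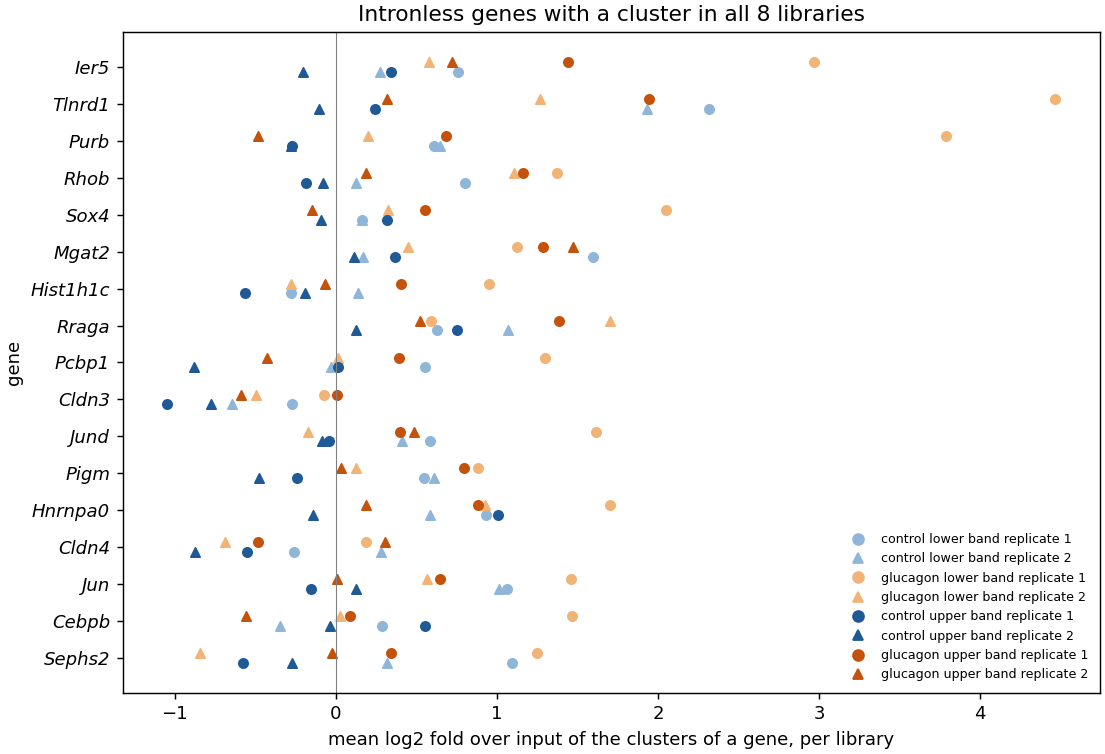
Mean log2 fold over input of the clusters of a gene in 1 library (x axis) for the 17 intronless genes with clusters in all 8 libraries (y axis, ordered by glucagon minus control); each point is 1 library, coloured by treatment and band and shaped by replicate. Rhob has both glucagon points above both control points within each band, and the glucagon lower band replicate 1 points of Tlnrd1, Purb and Ier5 lie farthest to the right.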

How the data were processed

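Per the submitters' processing notes, the reads of these single-end eCLIP libraries passed through cutadapt and STAR on mm10; versions are absent there. How clusters were called and the fold computed is not given in the sources used here. The authors deposited 1 list of clusters for each of the 8 IP libraries and 1 list of reproducible peaks for each of the 4 groups. The files have no header. From their values, the fourth deposited column was read as a −log10 p-value over input, capped at 400, and the fifth deposited column as a log2 fold over input. Read depth is unknown, so no interval on a fold could be formed.

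Clusters were placed by midpoint and strand in GENCODE M21 (coding sequence, then 3′ UTR, then 5′ UTR), and the members and lists were chosen with earlier results of these data known. Spliced genes, protein-coding genes with an intron, were the comparison. Within-library differences were tested by exact sign flips over 8 libraries, with lower and upper bands counted as separate units, and treatments or bands by exact label permutation (36 assignments), with Benjamini-Hochberg adjustment over 11 and 8 comparisons; a library needed 10 clusters on each side. The sign-flip test was also run on simulated data, with folds redrawn at random within each library. That leaves out any likeness of a gene's folds between libraries, so it cannot vouch for the test on these data. The software was Python 3.11.15 with pandas 2.3.3, numpy 2.4.6, matplotlib 3.10.9 and scipy 1.17.1.

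Named genes were the 10 with most enriched clusters (with 0 in all, those with the highest fold), the 10 with most clusters, those not overlapping between treatments, those with a reproducible peak, and up to 4 per list. Others (Rraga, Cldn4, Leng9, Inafm2, Dolk, B3galt4 and those of the closing section) were named after their values were seen. Alternatives covered thresholds, placement, summaries, short clusters and each library left out. Input reads were not analysed here, and 1 gene that the rule takes is not reported here.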

Additional observations from a re-analysis of the deposited data

How the results depend on the processing

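The coding-sequence fold difference between intronless and spliced genes kept its direction and its side of the threshold under each setting but the weighting to cluster density (−0.0729), with 1 value per gene it was 0.30, and without 1 library it ran from 0.52 to 0.58. The 3′ UTR difference missed the threshold without clusters under 20 nt (0.25), with only genes seen in 6 or more libraries (0.20) and with the density weighting (0.17). The 5′ UTR difference passed with any overlap in place of the midpoint (−0.48), turned and passed at positions never intronic (0.18), and ran from −0.30 to −0.17 without 1 library, passing only without glucagon lower band replicate 1. Within intronless genes, coding sequence minus 5′ UTR missed the threshold with means (−0.21), any overlap (−0.13), no short clusters (−0.0901) and UTRs placed first (−0.20), turned with 1 value per gene (0.0200), and ran from −0.24 to −0.17 without 1 library; coding sequence minus 3′ UTR turned with 1 value per gene (0.0494). With a fold of at least 2 the 3′ UTR difference in enriched share became 0.00469 percentage points. The treatment difference relative to spliced coding sequence turned with any overlap (0.0375), no short clusters (0.0335) and genes in 6 or more libraries (0.0575), and ran from −0.0916 to 0.0577 without 1 library; the band difference turned in those genes (−0.0229). The number of genes higher with glucagon ran from 1 to 8 without 1 library, highest without glucagon lower band replicate 2, and was 2 relative to spliced coding sequence. The cause of these changes was not tested. Under other settings 357 values kept direction and side, 11 turned, 13 fell short of the threshold, 2 came to pass it and 5 counts moved.

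Replicate numbers do not pair the samples by the labels. Deviations of replicate 1 libraries correlated between groups at 0.10 to 0.30 over 3996 genes. In each of the 4 groups replicate 1 was the smaller library, with the higher median fold and the higher share of member clusters. Whether this goes with the replicate or with library size was not tested. With the replicate block no call changed: the treatment difference in median fold stayed at 0.32 (exact permutation p = 0.250), with 0.125 the smallest p that 16 assignments allow. The comparison of mitochondrial with nuclear genes gave no value, since no cluster lay in the former. With 1115 clusters, most with a −log10 p near 0, folds of single clusters are imprecise and only shares above the printed limits could be seen. The alternatives on spliced positions, Sox4, the relative scale, genes in 6 or more libraries, GC content and density were chosen after seeing the data.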

Other observations

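Among intronless genes with at least 10 clusters, the highest median folds were in Irf2bpl and Hexim1, followed by Igip at 1.27 and Tlnrd1 at 1.14. Irf2bpl, which encodes an IRF2-binding protein-like protein, had 17 clusters with a median log2 fold of 1.42. Hexim1, the inhibitor of the elongation kinase P-TEFb, had 15 clusters in 5 libraries with a median of 1.31, 9 of them in control and 6 in glucagon libraries. Dio3, the deiodinase that inactivates thyroid hormone, had 15 clusters in 6 libraries with a median of 1.08, 12 of them in control and 3 in glucagon libraries. Of all 1115 member clusters, control libraries held 655 and glucagon libraries 460. Cluster numbers of single genes were not tested between treatments. Sephs2, the selenophosphate synthetase, had 16 clusters in all 8 libraries with a median of 0.18.

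Fold was also set against base composition and length across clusters. Spearman correlations of GC content with fold ran from −0.09 to 0.31 in the 8 libraries (40 to 197 clusters each), and of length with fold from −0.07 to 0.27. Clusters of 1 library share its depth and its input, so no p is given.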
